A study of Mus musculus with 12 samples.

Results

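Of the 31208 genes counted in the brain RNA-seq data, 10 were examined because they are known to answer to glucocorticoids or to carry that answer: Fkbp5, Sgk1, Per1, Tsc22d3, Zbtb16, Pdk4, Plin4, Errfi1, Klf9 and the receptor gene Nr3c1. They were found by gene symbol, each on 1 line of the table. The data came from 12 male C57BL/6 mice aged 8 weeks, with 4 mice in each of 3 groups. Sham mice were not ischemic, and the sources used here do not say whether they received an injection. The ischemia + vehicle mice received sterile saline into a cerebral ventricle (i.c.v.) on the day before the left middle cerebral artery was occluded, and the ischemia + lactate mice received lactate by the same route at the same time. The lactate was D-lactate by the methods, whereas the labels do not give its form. Brains of both ischemic groups were taken after 6 h. Vehicle and lactate therefore stand for pretreatments, and no group received lactate without ischemia. RNA came from brain tissue and not from sorted cells, so a lower level may come from fewer cells of a type or from less RNA per cell, which cannot be told apart.

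Glucocorticoids, in rodents mainly corticosterone, are released from the adrenal gland under stress and bind a receptor that is held in the cytoplasm by the chaperone Hsp90 and its partners. The bound receptor enters the nucleus and acts mostly at inverted pairs of the hexamer AGAACA. In brain, glia, endothelial cells and neurons all respond, and Fkbp5, Sgk1, Tsc22d3 and Per1 are used as readouts of that response. Several of these genes also have other inducers, such as calcium and cAMP for Per1 and growth factors for Errfi1, so none of them is a readout of the hormone alone. Corticosterone itself was not measured here.

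Promoter windows are shown first, 1 each of Sgk1, Tsc22d3, Per1 and Errfi1. All 4 shown hold a match to the letters searched, which not every window of these genes did. Whether such letters go with the pattern of levels was not tested. The windows reach from 250 bases before to 50 bases after a transcript start, on build GRCm38.p6 as given by RefSeq. Windows of 8 of the 10 genes were used, 17 in all. Zbtb16 had no entry, and Nr3c1 was not used for this step. Both strands were searched for the receptor hexamer AGAACA, the E-box CACGTG, at which clock factors bind, and the cAMP element TGACGTCA. The first window shown is of Sgk1, at chr10:21993640-21993939 on the plus strand, before one of its inner transcript starts. It held AGAACA and its reverse complement with 3 bases between them, without a mismatch, at bases 62 and 71. It held a further reverse complement at base 9, which overlaps an E-box at base 5. The second is of Tsc22d3, at chrX:140600473-140600772 on the minus strand, with the hexamer's reverse complement at base 66. The third is of Per1, at chr11:69098699-69098998 on the plus strand, with an E-box at base 85. The fourth is of Errfi1, at chr4:150854820-150855119 on the plus strand, with the cAMP element at base 200. Capitals mark these letters, and each window is written 5′ to 3′ along its own gene.
Sgk1: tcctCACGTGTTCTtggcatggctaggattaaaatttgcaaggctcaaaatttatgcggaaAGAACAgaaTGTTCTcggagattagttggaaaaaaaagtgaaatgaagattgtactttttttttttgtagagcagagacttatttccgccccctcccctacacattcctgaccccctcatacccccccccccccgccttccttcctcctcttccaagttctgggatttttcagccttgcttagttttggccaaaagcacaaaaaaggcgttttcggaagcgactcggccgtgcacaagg
Tsc22d3: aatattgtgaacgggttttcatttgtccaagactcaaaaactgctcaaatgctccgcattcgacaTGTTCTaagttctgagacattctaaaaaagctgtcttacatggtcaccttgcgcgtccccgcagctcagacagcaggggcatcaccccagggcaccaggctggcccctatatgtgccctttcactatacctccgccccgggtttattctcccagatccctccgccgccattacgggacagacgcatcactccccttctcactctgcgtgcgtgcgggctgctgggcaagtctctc
Per1: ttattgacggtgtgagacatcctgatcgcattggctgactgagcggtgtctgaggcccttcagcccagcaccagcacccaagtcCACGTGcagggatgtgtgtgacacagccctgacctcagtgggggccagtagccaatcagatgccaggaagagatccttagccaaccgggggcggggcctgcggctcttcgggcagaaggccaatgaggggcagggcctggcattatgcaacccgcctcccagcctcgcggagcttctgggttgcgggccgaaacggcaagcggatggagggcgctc
Errfi1: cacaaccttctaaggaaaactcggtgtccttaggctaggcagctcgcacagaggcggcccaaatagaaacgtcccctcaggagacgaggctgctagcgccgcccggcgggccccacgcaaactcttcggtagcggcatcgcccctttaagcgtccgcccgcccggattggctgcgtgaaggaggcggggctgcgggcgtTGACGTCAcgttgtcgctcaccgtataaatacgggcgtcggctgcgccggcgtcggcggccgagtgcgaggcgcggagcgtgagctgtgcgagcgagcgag
The hexamer stood in 4 of the 17 windows, 3 of Sgk1 and 1 of Tsc22d3, a share near the 19.0% of all 32851 promoter windows of the table. The E-box stood in 1 window each of Fkbp5, Sgk1 and Per1, against 7.15% of all windows. The cAMP element stood in the Errfi1 window only, against 1.79% of all windows. The inverted pair of hexamers without a mismatch stood in 3 of the 32851 windows, 1 of which is the Sgk1 window shown, and with at most 2 mismatches in 1.84%. The windows of Pdk4, Plin4 and Klf9 held none of these letters. A match is a description of the sequence, not a binding site.

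The depth was close between the groups, with total counts from 6815920 to 10677224 per mouse (median 7877263). At this depth 3 counts, taken as the smallest level told from 0, are worth 0.281 to 0.440 CPM, which is the count scaled to the library total. Neuronal markers summed to between 3147 and 5036 CPM in every mouse, and 0 of 6 differed past the test in either comparison with sham (edgeR, DESeq2 and limma voom, and 0 at an unadjusted p under 0.05). Over all genes 1.29% rose and 0.182% fell with vehicle, and 8.76% rose and 3.55% fell with lactate (edgeR). Vehicle mouse 1 was the deepest library and stood apart from the other 11 mice on the second principal component (-57.2 against -7.04 to 16.4). Vehicle mouse 2 held choroid plexus RNA, with markers summing to 1836 CPM, whereas the other 11 mice held at most 18.1 CPM. For vehicle against sham, the count of genes past the test is therefore also given without these mice. Between the ischemic groups, only Klf9 is given without vehicle mouse 1. Neutrophil genes S100a8 and S100a9 rose in both ischemic groups, and the microglial genes Cx3cr1 and P2ry12 fell with vehicle, with P2ry12 also lower with lactate. With lactate the oligodendrocyte genes Mog and Cnp, the endothelial gene Slco1a4 and the hemoglobin genes Hba-a1 and Hbb-bs also fell, and the neutrophil gene Retnlg (under 1 CPM in every sham mouse), the endothelial gene Ly6c1 and the choroid plexus gene Ttr rose (edgeR, adjusted p under 0.05 for each). Their part in the results was not tested.

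**Figure D1:**
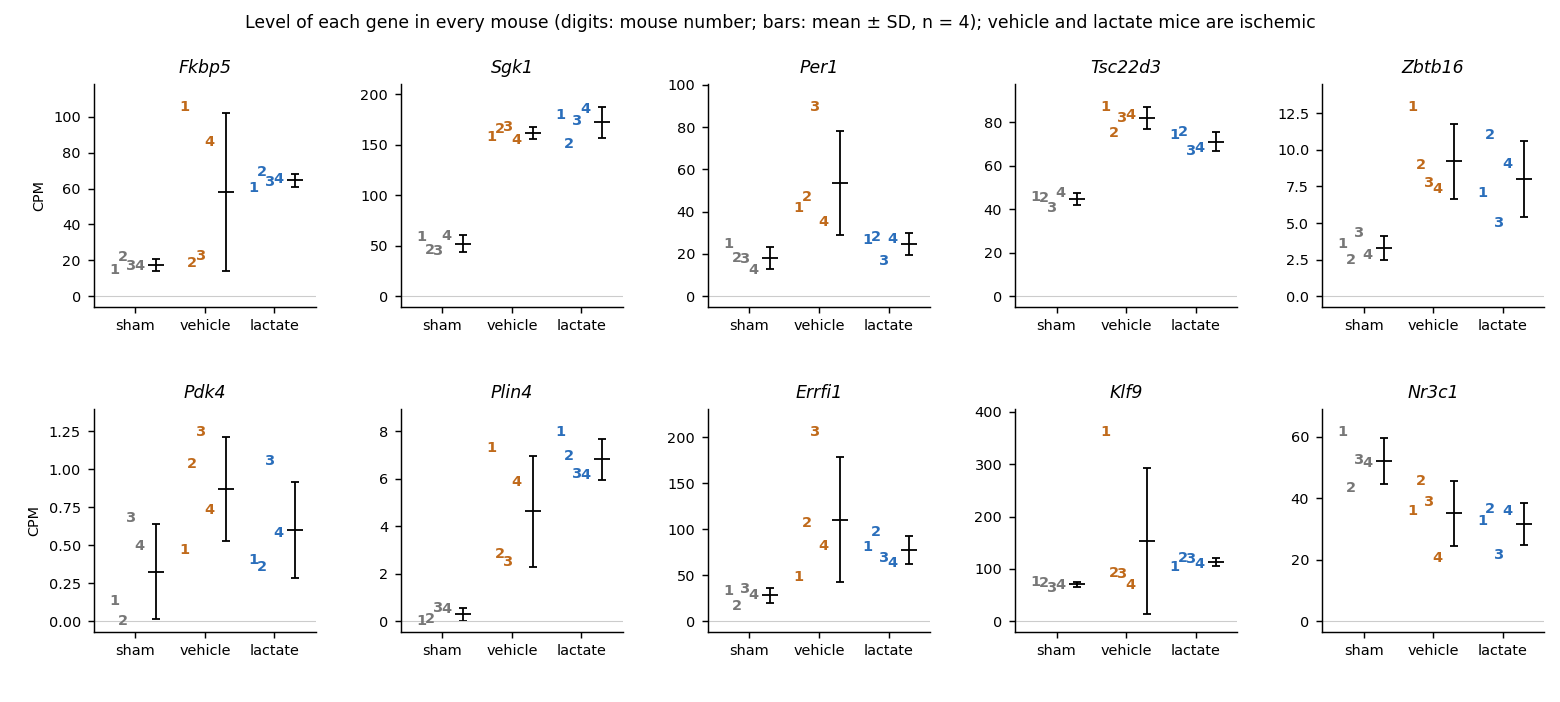
Level of each of the 10 genes in CPM (y axis, from 0) in sham, ischemia + vehicle and ischemia + lactate mice. Digits are the mouse numbers and bars the mean ± SD of 4 mice. Sgk1 and Tsc22d3 were raised evenly in all 8 ischemic mice, whereas Fkbp5, Errfi1, Per1 and Klf9 were spread widely among the vehicle mice.

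The comparison of ischemia + vehicle with sham asks how these genes stood after i.c.v. saline and 6 h of ischemia. Since an injection of sham mice is not stated, effects of injection and of ischemia cannot be told apart. Of the 9 genes that passed the filter on low counts, 6 rose and 0 fell past the test: Sgk1, Per1, Tsc22d3, Zbtb16, Plin4 and Errfi1 (edgeR quasi-likelihood test, Benjamini-Hochberg adjusted p under 0.05 over all genes tested). Plin4 reached 1 CPM in no sham mouse and passed the filter through the vehicle mice alone. That limits every count and median here that holds it. Among all 17019 genes tested, 1.29% rose and 0.182% fell. The 10 genes were chosen with earlier results of these data known, so the shares set beside them are a description only. All 9 had an unadjusted p under 0.05, and DESeq2 and limma voom each called 6. The study called genes by DESeq at a fold change of 1.5 or more with P under 0.05. It names a Benjamini-Hochberg adjustment but does not say whether this P was adjusted. With the unadjusted edgeR p, here called the 1.5-fold threshold, 8 of the 9 passed, where 9.52% of all genes did. The vehicle and sham mice did not overlap for 6 of the 9, all of them higher with vehicle, where 9.03% of all genes did not overlap. The median log2 fold change of the 9 was 1.59, beside 0.0031 over all genes tested. The count of 6 fell to 3 without sham mouse 2 or without sham mouse 4. Calls over all genes fell likewise, from 250 to between 112 and 125 when any 1 sham mouse was left out. The count of 6 stayed at 6 without vehicle mouse 1 and was 7 without vehicle mouse 2. Without both it was again 6, an alternative added once the values were known.

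The comparison of ischemia + lactate with sham asks the same of the mice pretreated with lactate. Here 7 of the 9 genes rose, where 8.76% of all 17262 genes tested rose: Fkbp5, Sgk1, Tsc22d3, Zbtb16, Plin4, Errfi1 and Klf9. Plin4 again passed the filter through the ischemic mice alone, which limits the counts and the median that hold it. The receptor gene Nr3c1 fell, where 3.55% of all genes fell. By the threshold of the study 8 of the 9 passed, where 17.5% of all genes did, and for the same number the lactate and sham mice did not overlap, where 19.1% of all genes did not. The median log2 fold change of the 9 was 1.33, beside -0.028 over all genes tested. The 4 sham mice are shared by the vehicle and lactate comparisons, which are therefore not independent.

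Whether lactate altered the level in ischemic brain was tested directly between the ischemic groups. None of the 9 genes differed past the test (edgeR, 0 of 9, with 1 at an unadjusted p under 0.05, 1 by DESeq2 and 0 by limma voom), where 0.00574% of all 17419 genes tested did. By the threshold of the study 1 gene passed, Per1, where 6.23% of all genes did. Per1 was also the 1 gene of the 9 whose groups did not overlap, where 4.81% of all genes did not. Thus Fkbp5, Klf9 and Nr3c1, called against sham with lactate only, and Per1, called with vehicle only, were not shown to differ between the ischemic groups by edgeR.

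**Figure D2:**
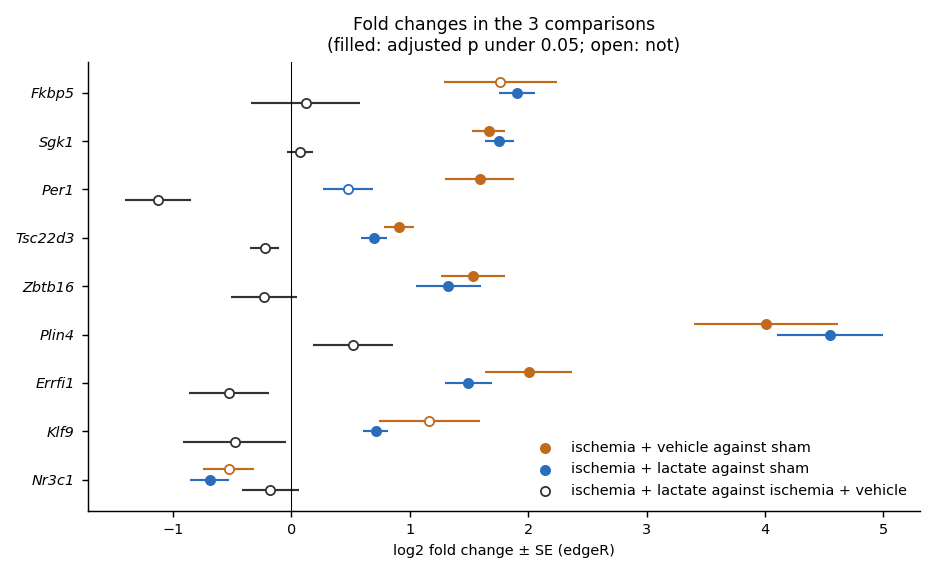
Log2 fold change with its SE from edgeR (x axis) for the 9 genes tested (y axis) in the 3 comparisons. Filled points passed an adjusted p of 0.05 and open points did not, and all points of lactate against vehicle (black) are open, the lowest being Per1 at -1.12.

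Sgk1, Tsc22d3 and Zbtb16 rose in every ischemic mouse. Sgk1 (ENSMUSG00000019970, chr10:21882184-21999903, plus strand), which encodes a kinase that controls ion channels and is induced by both corticosteroid receptors, stood at 58.8, 45.3, 45.0 and 59.3 CPM in sham mice 1 to 4. It stood at 157.7, 165.9, 166.9 and 154.6 CPM in vehicle mice and at 179.2, 150.2, 173.8 and 184.8 CPM in lactate mice. Every ischemic mouse lay far above every sham mouse, and the vehicle mice differed by only 1.08-fold from lowest to highest. Sgk1 rose by a log2 fold change of 1.67 ± 0.14 (SE) with vehicle (adjusted p = 2.23e-05) and 1.76 ± 0.12 with lactate (adjusted p = 1.17e-06, edgeR). The ischemic groups differed by 0.07 ± 0.11 (adjusted p = 0.88). Its window above is the one that carries the exact inverted pair of hexamers.

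Tsc22d3 (ENSMUSG00000031431, chrX:140539528-140600659, minus strand) encodes GILZ, a leucine zipper protein through which glucocorticoids dampen inflammation. It stood at 45.5, 45.4, 40.6 and 47.2 CPM in sham mice, 87.0, 75.1, 81.9 and 83.5 CPM in vehicle mice, and 74.0, 75.3, 66.9 and 68.2 CPM in lactate mice. Within each group the highest mouse was at most 1.16-fold above the lowest. The gene rose by 0.91 ± 0.13 with vehicle (adjusted p = 0.00301) and 0.70 ± 0.11 with lactate (adjusted p = 0.0016, edgeR). The ischemic groups met at the lowest vehicle mouse and the highest lactate mouse, and differed by -0.23 ± 0.12 (adjusted p = 0.623). Like Sgk1, it passed under every alternative tried in both comparisons with sham.

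Zbtb16 (ENSMUSG00000066687, chr9:48654297-48836222, minus strand) encodes the zinc finger repressor PLZF. Its levels were low, at 3.56, 2.45, 4.35 and 2.84 CPM in sham mice, 12.9, 8.94, 7.72 and 7.34 CPM in vehicle mice, and 7.03, 11.0, 5.01 and 9.04 CPM in lactate mice. Every ischemic mouse lay above every sham mouse, with lactate mouse 3 closest to them. The log2 fold change was 1.53 ± 0.27 with vehicle (adjusted p = 0.0125) and 1.33 ± 0.27 with lactate (adjusted p = 0.00803, edgeR). With vehicle the adjusted p was 0.053 without sham mouse 2 and 0.0551 without sham mouse 4. The ischemic groups differed by -0.23 ± 0.28 (adjusted p = 0.839).

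Fkbp5 and Plin4 split the vehicle mice alike, with mice 1 and 4 high and mice 2 and 3 low. Fkbp5 (ENSMUSG00000024222, chr17:28399094-28517527, minus strand) encodes a cochaperone of Hsp90 that lowers the receptor's affinity for hormone and so closes a feedback loop. Sham mice stood at 14.5, 22.1, 16.6 and 16.8 CPM. Vehicle mice 1 to 4 stood at 105.5, 18.3, 22.5 and 86.0 CPM, and lactate mice at 60.2, 69.1, 63.6 and 65.3 CPM. Vehicle mouse 2 lay inside the sham range and mouse 3 just above it, while mice 1 and 4 lay above every lactate mouse. The vehicle mice thus spread 5.78-fold from lowest to highest, and the lactate mice 1.15-fold. Fkbp5 rose with lactate by 1.91 ± 0.15 (adjusted p = 3.36e-06, edgeR). With vehicle the fitted value was 1.77 ± 0.48 (adjusted p = 0.111), of like size but without a call, and the adjusted p was 0.0311 without vehicle mouse 2 and 0.0476 without vehicle mouse 3. The ischemic groups differed by 0.12 ± 0.46 (adjusted p = 0.962), and this SE leaves room for a difference of either sign.

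Plin4 (ENSMUSG00000002831, chr17:56100591-56109803, minus strand) encodes a protein of the lipid droplet coat. It was read 0, 1, 4 and 4 times in sham mice, 78, 22, 20 and 40 times in vehicle mice, and 59, 58, 47 and 53 times in lactate mice. In CPM, sham mice reached at most 0.543, vehicle mice stood at 7.31, 2.85, 2.49 and 5.87, and lactate mice between 6.15 and 7.98. All sham mice lay at or near the smallest level told from 0, so the gene passed the filter through the ischemic mice alone and its calls are stated with that limit. The ratio of pooled CPM was 17.1 with vehicle (95% exact interval 8.80 to 38.1) and 24.2 with lactate (12.5 to 53.6), intervals that cover counting error only. Plin4 rose past the test in both (edgeR adjusted p = 0.0044 and 3.4e-05). The ischemic groups differed by 0.52 ± 0.34 on the log2 scale (adjusted p = 0.681).

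Per1 and Errfi1 had vehicle mouse 3 as their highest mouse. Per1 (ENSMUSG00000020893, chr11:69095217-69109960, plus strand) encodes a clock repressor that stress hormones and neuronal activity induce acutely. It stood at 24.9, 18.2, 17.5 and 12.2 CPM in sham mice, 41.9, 47.0, 89.5 and 35.2 CPM in vehicle mice, and 26.6, 28.1, 16.9 and 27.2 CPM in lactate mice. All vehicle mice lay above all others, whereas lactate mice overlapped the sham mice. Per1 rose with vehicle by 1.59 ± 0.29 (adjusted p = 0.0149, edgeR), a call that leaving out sham mouse 2, 3 or 4 ended (adjusted p 0.0602 to 0.0679). With lactate the value was 0.48 ± 0.21 (adjusted p = 0.163). Directly compared, lactate mice stood lower than vehicle mice by -1.12 ± 0.28, with an adjusted p of 0.449 in edgeR and 0.0417 in DESeq2. Its paralogs Per2 and Per3 did not pass the test in any comparison.

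Errfi1 (ENSMUSG00000028967, chr4:150853919-150868892, plus strand) encodes MIG6, an inhibitor of the EGF receptor. Sham mice stood at 32.4, 16.9, 34.9 and 28.6 CPM, vehicle mice at 47.9, 106.5, 205.7 and 82.0 CPM, and lactate mice at 81.0, 96.6, 68.8 and 63.0 CPM. No ischemic mouse fell into the sham range, and the vehicle mice spread 4.30-fold. The gene rose by 2.01 ± 0.37 with vehicle (adjusted p = 0.0157) and by 1.49 ± 0.20 with lactate (adjusted p = 0.000473, edgeR). The vehicle call was lost when any 1 sham mouse was left out (adjusted p 0.0524 to 0.0695). Lactate against vehicle was -0.53 ± 0.34 (adjusted p = 0.679). Its window above carries the cAMP element.

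Klf9 (ENSMUSG00000033863, chr19:23141226-23168134, plus strand) encodes a Krüppel-like repressor induced by both glucocorticoid and thyroid hormone. It stood at 74.4, 73.9, 64.4 and 68.8 CPM in sham mice, 361.7, 91.7, 90.8 and 69.2 CPM in vehicle mice, and 103.9, 120.2, 118.0 and 109.2 CPM in lactate mice. Vehicle mouse 1 was 3.01-fold above the highest of the other 11 mice, a ratio that 8 of the 17019 genes tested reached or passed (on CPM + 0.5), and vehicle mouse 4 lay inside the sham range. Mouse 1 also had the highest sum of neuronal markers of all mice (5036 CPM), whose part in the Klf9 level was not tested. Klf9 rose with lactate by 0.71 ± 0.10 (adjusted p = 0.000894, edgeR), but 1 fit of all 12 mice, whose shared spread includes vehicle mouse 1, gave an adjusted p of 0.292. With vehicle the value was 1.16 ± 0.43 (adjusted p = 0.253), and 0.28 without mouse 1 (adjusted p = 0.297). Lactate against vehicle was -0.48 ± 0.44 and turned to 0.41 without that mouse (adjusted p = 0.777 and 0.409).

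Nr3c1 (ENSMUSG00000024431, minus strand) encodes the glucocorticoid receptor, which lowers its own transcript under hormone in many cells. It stood at 61.6, 43.4, 52.4 and 51.6 CPM in sham mice, 35.8, 45.6, 38.8 and 20.5 CPM in vehicle mice, and 32.5, 36.5, 21.6 and 35.7 CPM in lactate mice. All lactate mice lay below all sham mice, and vehicle mouse 2 lay inside the sham range. Nr3c1 fell with lactate by a log2 fold change of -0.69 ± 0.16 (adjusted p = 0.0157, edgeR), and the adjusted p was 0.0594 in 1 fit of all 12 mice. With vehicle the value was -0.53 ± 0.21 (adjusted p = 0.297). The ischemic groups differed by -0.18 ± 0.24 (adjusted p = 0.86).

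Pdk4 (ENSMUSG00000019577, chr6:5483351-5496309, minus strand) encodes a kinase that shuts pyruvate dehydrogenase when fat is burnt. Its reads numbered 1, 0, 5 and 4 in sham mice, 5, 8, 10 and 5 in vehicle mice, and 3, 3, 8 and 5 in lactate mice. All groups overlapped, and the gene failed the filter, so it entered no fit across genes. A two-sided exact permutation test of its CPM gave p = 0.0857 for vehicle against sham, 0.286 for lactate against sham and 0.257 for lactate against vehicle. Adjusted over these 3 tests the values were 0.257, 0.286 and 0.286, and the smallest p that 4 against 4 mice allow is 0.0286. The pooled ratio to sham was 2.70 (95% exact interval 1.27 to 6.22) with vehicle and 1.90 (0.842 to 4.58) with lactate, counting error only, so a change was not detectable at this depth over the spread of the mice.

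**Figure D3:**
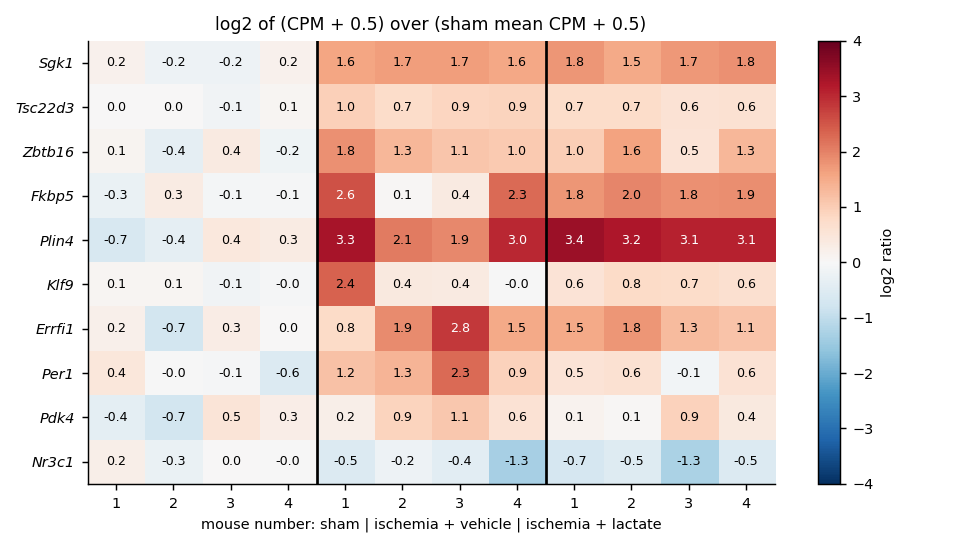
Log2 of CPM + 0.5 over the sham mean + 0.5 (color and digits) for the 10 genes (rows) in each of the 12 mice (columns, lines part the groups). Among vehicle mice, Fkbp5 and Plin4 are highest in mice 1 and 4, Errfi1 and Per1 in mice 2 and 3, and Klf9 in mouse 1, while Sgk1 and Tsc22d3 hardly vary.

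The plot of ratios to sham shows that no mouse was high for all genes. Of the 10 genes, vehicle mouse 1 was highest of its group for 5, mouse 3 for 4, mouse 2 for 1 and mouse 4 for 0, and mouse 4 was lowest for 5. In the lactate group mouse 2 was highest for 7. Dusp1, a phosphatase gene induced by hormone and by neuronal activity, ran like Per1 and Errfi1, with 8.62, 39.9, 88.5 and 6.46 CPM in vehicle mice 1 to 4. Ptgs2, the gene of cyclooxygenase 2, did the same with 5.53, 39.9, 70.1 and 5.58 CPM. Mt2, a metallothionein gene induced by hormone and by zinc, ran like Fkbp5, with 390.2, 207.7, 264.7 and 485.8 CPM. S100a8, a neutrophil gene, stood at 6.09, 26.2, 36.1 and 5.72 CPM in the same mice, highest where Per1 and Errfi1 were highest, and its part in their levels was not tested. These 4 genes were picked with their values known, and the mice were not grouped by them in any test.

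The genes whose levels were most like those of Fkbp5 over the 12 mice, among 13527 other Ensembl genes with at least 1 CPM in at least 4 mice, were Tmed9, Rhof, Lpin3, Tk1 and Tle3. Pearson's r of log2(CPM + 1) was 0.960, 0.950, 0.947, 0.930 and 0.925. The 12 points share groups and libraries, so these values only describe the pattern. Tmed9, a gene of vesicle traffic out of the endoplasmic reticulum, stood at 169.4, 111.8, 123.2 and 167.0 CPM in vehicle mice 1 to 4, against 116.3 to 123.2 CPM in sham mice and 151.1 to 168.5 CPM in lactate mice. It repeats the split of vehicle mice 1 and 4 from mice 2 and 3. Lpin3, a lipid phosphatase gene, stood at 1.78, 0.130, 0.124 and 1.32 CPM in the same mice, with the low mice under the smallest level told from 0.

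Beyond the 10 genes, 25 other genes known to be induced by glucocorticoids were counted. This list and those below were chosen with earlier results of these data known. Their counts beside the shares of all genes therefore only describe the lists. With vehicle 13 of 25 rose and 0 fell, where 1.29% of all genes rose, and the median log2 fold change was 1.14, beside 0.0031 over all genes tested. Lcn2, Cdkn1a, Nfkbia and Mt2 had the lowest adjusted p. Cdkn1a, the gene of the cell cycle inhibitor p21, rose by 2.52 ± 0.23 (adjusted p = 4e-05), and Nfkbia, the inhibitor of NF-kappa B, by 1.63 ± 0.17 (adjusted p = 0.00016, edgeR). With lactate 19 of 25 rose and 0 fell, where 8.76% of all genes rose, with a median of 1.15 beside -0.028, and Mt2, Lcn2, Mt1 and Nfkbia led. Mt2 rose by 2.10 ± 0.23 with vehicle (adjusted p = 0.00025) and by 2.50 ± 0.09 with lactate (adjusted p = 5.8e-09, edgeR). Many of these genes, Cdkn1a, Mt1, Mt2, Nfkbia and Lcn2 among them, are also induced by p53, metals or NF-kappa B. Both counts hold Lcn2 and Cebpd, which no sham mouse held at 1 CPM and which passed the filter through the ischemic mice alone.

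Lcn2, an acute-phase gene, was read 0, 0, 0 and 2 times in sham mice, and stood at 24.8, 22.5, 21.5 and 27.3 CPM in vehicle mice and 45.8, 44.9, 43.6 and 41.3 CPM in lactate mice. It was the 1 gene of the 25 whose ischemic groups did not overlap, a share near the 4.81% of all genes. It did not pass the direct test (0.85 ± 0.14, adjusted p = 0.265, edgeR). Of the 25 genes 0 passed that test in edgeR and limma voom and 1 in DESeq2, with 3 at an unadjusted p under 0.05. Among all 17419 genes tested, 1540 had such a p (edgeR). Dusp1 was the 1 gene of the 25 with a fitted value below 0 against sham, at -0.73 ± 0.28 with lactate (adjusted p = 0.112), and stood at 1.56 ± 0.66 with vehicle (adjusted p = 0.316).

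**Figure D4:**
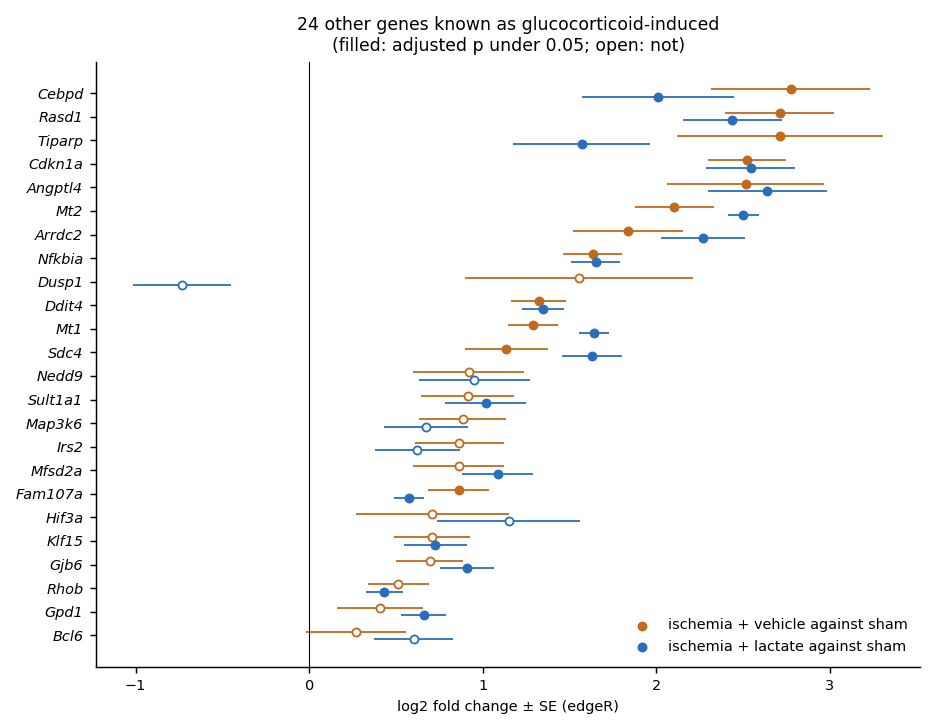
Log2 fold change against sham with its SE from edgeR (x axis) for the other glucocorticoid-induced genes (y axis) with vehicle (orange) and lactate (blue), Lcn2 left out since sham mice held 2 reads in all. Filled points passed an adjusted p of 0.05, 12 with vehicle and 18 with lactate, and Dusp1 alone lies left of 0, with lactate.

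Of the 14 genes of the receptor machinery, Nr3c1 included, 13 were tested, and with vehicle 0 passed the test (edgeR and limma voom, 2 by DESeq2, and 4 at an unadjusted p under 0.05). A count of 0 is near the share of all genes with vehicle, of which 1.29% rose and 0.182% fell. With lactate 3 rose, where 8.76% of all genes did, all of the chaperone cycle: Stip1 by 0.85 ± 0.10 (adjusted p = 0.00028), Hsp90ab1 by 0.62 ± 0.09 (adjusted p = 0.00095) and Hspa8 by 0.55 ± 0.09 (adjusted p = 0.0023, edgeR). The other 2 called fell, where 3.55% of all genes did, Nr3c1 and the corepressor gene Ncor1 (-0.33 ± 0.10, adjusted p = 0.042). The mineralocorticoid receptor gene Nr3c2, which binds the same hormone, had values of 0.01 ± 0.25 with vehicle and -0.42 ± 0.19 with lactate (adjusted p = 0.99 and 0.17). Hsd11b1, whose enzyme regenerates active hormone, had -0.26 ± 0.19 and -0.31 ± 0.15 (adjusted p = 0.59 and 0.21). Fkbp4, the cochaperone that favors receptor transport, had 0.20 ± 0.15 and 0.40 ± 0.15 (adjusted p = 0.62 and 0.10).

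Genes that glucocorticoids repress were mostly too low to test, with 4 of 11 tested against sham. Of these 4, Ptgs2 and Ccl2 rose in both ischemic groups and 0 fell (edgeR), where 1.29% of all genes rose with vehicle and 8.76% with lactate. DESeq2 called 2 in each comparison, and limma voom 1 with vehicle and 2 with lactate. Ptgs2 rose by 3.19 ± 0.72 with vehicle (adjusted p = 0.0491) and by 1.94 ± 0.42 with lactate (adjusted p = 0.0105, edgeR). Its vehicle mice 1 and 4 stood at 5.53 and 5.58 CPM, just above the highest sham mouse at 4.32 CPM. Ccl2, a chemokine gene, stood at 0 to 0.136 CPM in sham mice, 1.47 to 5.48 CPM in vehicle mice and 1.22 to 3.96 CPM in lactate mice, so it too passed the filter through the ischemic mice alone. Of 5 genes of the hormone axis, Crh, Avp and Pomc encode peptides that drive hormone release, Crhr1 a receptor and Crhbp a binding protein. All but Avp were tested. Those 4 gave 0 calls in either comparison with sham (edgeR, DESeq2 and limma voom, with 1 at an unadjusted p under 0.05 with vehicle and 2 with lactate). Over all genes 1.29% rose and 0.182% fell with vehicle, and 8.76% rose and 3.55% fell with lactate. Hormone release itself was not measured, so 0 calls in this brain RNA do not show an unchanged axis.

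Of 15 other clock genes 0 passed with vehicle (edgeR, DESeq2 and limma voom, with 2 at an unadjusted p under 0.05). This is near the share of all genes, of which 1.29% rose and 0.182% fell. An unadjusted p under 0.05 was held by 2346 of all 17019 genes (edgeR). With lactate 3 of the 15 fell, where 3.55% of all genes did, Ciart by a log2 fold change of -0.85 ± 0.19, Arntl by -0.56 ± 0.14 and Dbp by -0.84 ± 0.23 (adjusted p = 0.013, 0.018 and 0.029, edgeR). Of 10 targets of the PPAR lipid receptors, which also control Pdk4 and Plin4, 2 rose in both comparisons, Ucp2 and Angptl4, where 1.29% of all genes rose with vehicle and 8.76% with lactate. Ucp2, of a mitochondrial carrier, rose by 1.82 ± 0.21 and 2.08 ± 0.16, and Angptl4, of a lipase inhibitor, by 2.51 ± 0.45 and 2.64 ± 0.34 (adjusted p at most 0.015, edgeR). Angptl4 is also 1 of the 25 glucocorticoid-induced genes counted above, and some other genes likewise stand in more than 1 list. Of 16 paralogs of the 10 genes, 15 were tested and 0 passed with vehicle (edgeR and limma voom, 1 by DESeq2, and 2 at an unadjusted p under 0.05). That too is near the share of all genes with vehicle. With lactate 2 of the 15 rose, a share near the 8.76% of all genes. Tsc22d4 rose by 0.66 ± 0.12 and Sgk3 by 0.76 ± 0.18 (adjusted p = 0.0048 and 0.017, edgeR).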

How the data were processed

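Brain RNA of 12 mice (3 groups of 4, from the labels) was sequenced by the authors as full-length nanopore cDNA reads, mapped with minimap2 to GRCm38 (build and DESeq 1.10.1 per the submitters' processing notes). The counting step and annotation are not given in the sources used here. The authors deposited whole-number counts per gene without normalization, and CPM values, which equal each count over its library total. The table's own fold change and p columns were not used. Of its lines, 4 hold no gene and were left out, and 27 symbols stored as dates were restored with the mouse GENCODE release M21, which also gave positions.

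Groups were compared with edgeR 4.0.16 in R 4.3.3 (TMM, quasi-likelihood test, only the 8 mice compared, genes with CPM of at least 1 in at least 4 mice, or 3 when 1 mouse was left out), Benjamini-Hochberg adjusted over all genes. The number of mice needed was lowered by 1 more when vehicle mice 1 and 2 were left out together. DESeq2 1.42.0 and limma 3.58.1 served as alternatives, besides other size factors, other filters, 1 fit of all mice, known genes only, a replicate block and leaving out each mouse. The code was tested on simulated data. Python 3.11.15 with pandas 2.3.3 and scipy 1.17.1 made the other values. The genes and lists were chosen with earlier results of these data known. All 10 genes are given in every mouse, and of other lists at most 4 genes per comparison with the lowest adjusted p are named, besides Nr3c2, Hsd11b1 and Fkbp4. Dusp1, Per2, Per3 and the genes set beside single mice were named outside this rule, with their values known. Reads carry no molecular identifiers, so intervals and floors cover counting error only.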

Additional observations from a re-analysis of the deposited data

Results flagged for a closer look

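In 30 tests of a single mouse against the other 3 of its group (10 genes in 3 groups), 2 gaps passed Dixon's limit of 0.829 for 4 samples, and chance passes about 1 in 20 such groups. Klf9 in vehicle mouse 1 stood at 361.7 CPM against 69.2 to 91.7 CPM in the other 3, a gap of 0.923 of the group's range. Per1 in lactate mouse 3 stood at 16.9 CPM against 26.6 to 28.1 CPM in the others, a gap of 0.867 of the range. None of the 9 genes tested differed between the ischemic groups past the edgeR test.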

How the results depend on the processing

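Of the alternatives tried, the count of genes that passed held within 1.5 times for vehicle and lactate against sham in each, apart from leaving out single mice with vehicle, where it ran from 3 to 7, while with lactate leaving out single mice left it at 8. With the replicate block it was 6, 8 and 0 in the 3 comparisons, as without it, and the mouse numbers do not pair animals (correlation of deviations -0.17 to 0.18). Lactate against vehicle gave 1 gene by DESeq2 and 1 by the 1.5-fold threshold, Per1 in both. Of 450 single-gene values, 434 kept their side of the threshold, 11 lost and 5 gained it, and 0 called values changed sign. In the fit of all 12 mice Fkbp5 passed with vehicle (adjusted p = 0.0472, and 0.0493 without a filter) and Klf9 and Nr3c1 did not pass with lactate. Over all genes tested, calls ran from 112 to 515 around 250 with vehicle, from 1003 to 2602 around 2124 with lactate, and from 0 to 61 around 1 between the ischemic groups, the ends being sham mouse 3 left out, vehicle mice 1 and 2 left out, known genes only, no filter, limma voom and DESeq2. Depth limits Pdk4 in all mice and Plin4 in sham mice.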
